A study of Homo sapiens with 9 samples.

Results

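Small nucleolar RNAs (snoRNAs) and the small Cajal body RNAs (scaRNAs) were examined as a group in libraries deposited as HEK293T cells, a human embryonic kidney line. The markers of those labelled hPRM1 went against this cell type, as given below. All genes whose symbol is SNORA, SNORD or SCARNA followed by a number were searched, which gave 535 of the 57338 genes listed. The members are the 30 of these that reached 1 RPKM (reads scaled to the gene length and the library size) in 3 or more of the 9 libraries, and they were thus selected on their measured RPKM. They are 13 of 208 H/ACA genes (SNORA), 12 of 302 C/D genes (SNORD) and 5 of 25 Cajal body RNA genes (SCARNA). The cells had been transfected with a pcDNA3.1 plasmid coding for EGFP alone (empty vector), for EGFP fused to hPRM1 or for EGFP fused to hPRM2, the human protamines that pack DNA in sperm. Cells with a high EGFP signal were sorted 3 days later, and each of the 3 groups had 3 libraries made with a kit that reads the 3′ ends of polyadenylated RNA. Nothing in the labels says that replicates came from separate cultures, so p-values measure the spread between these libraries, which may be technical.

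Each snoRNA is a short guide that pairs with a target RNA and carries a set of core proteins to it. C/D RNAs bring fibrillarin (FBL), which methylates the ribose of the paired base, and H/ACA RNAs bring dyskerin (DKC1), which turns uridine into pseudouridine. Most guides act on ribosomal RNA in the nucleolus, scaRNAs act on spliceosomal RNAs in Cajal bodies, and a few such as U3 (SNORD3A) and U8 (SNORD118) are needed for cleavage of the ribosomal RNA precursor. In humans most of them are cut out of introns of a host gene, and the mature RNAs carry no poly(A) tail, so the kit used here was not made for them.

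The libraries labelled hPRM1 went against their label. PRM1 was listed at 0 in all 9 libraries, whereas PRM2 stood between 36130 and 71224 RPKM in the 3 hPRM2 libraries and at 0 elsewhere. Of 11 genes typical of HEK293T cells, 9 were at 0 in all 3 libraries labelled hPRM1, and the list summed to 0 to 0.556 RPKM there, against 323 to 398 RPKM with the empty vector and 294 to 371 RPKM with hPRM2. Their 12 erythroid genes summed to between 2063668 and 2270133 RPKM, against 20 to 43.5 RPKM with the empty vector and 23.7 to 73.0 RPKM with hPRM2. The 12 lymphocyte genes summed to between 934 and 1208 RPKM there, were all at 0 with the empty vector and reached at most 0.406 RPKM with hPRM2, and the 13 neutrophil and monocyte genes summed to 6787 to 8015 RPKM, against 40.1 to 41.3 and 16.0 to 49.0 RPKM. The library numbers of these 3 libraries belong to another series than those of the other 6, so label and batch cannot be told apart for them. Every value from them is therefore given for the libraries labelled hPRM1 and not for an effect of hPRM1. The hPRM2 replicate 1 also stood apart, since only 19 of 6458 single-transcript genes between 60 and 180 bases long were above 0 in it, against 57 to 135 in the other libraries. Over all lengths 9652 genes were above 0 in it, against 14353 to 16705 in the others.

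Sequences are shown for the members on which the comparisons turn, as listed in GENCODE 29 for GRCh38 and written 5′ to 3′ with T. SNORA44 (chr1:28580381-28580512, minus strand), SNORA24 (chr4:118279190-118279320, plus strand) and SNORD83B (chr22:39313819-39313911, minus strand) were at 0 in every hPRM2 library. SNORD83A (chr22:39315213-39315307, minus strand) is the neighbour of SNORD83B in the gene RPL3. SNORD118 (chr17:8173454-8173587, minus strand) had the highest hPRM2 values, and SNORA12 (chr10:100237156-100237302, minus strand) and SCARNA22 (chr4:1974636-1974760, plus strand) were the highest of their class with the empty vector. Capitals mark TGATGA in the first 20 bases and CTGA in the last 20 bases of C/D RNAs, and ANANNA starting in the middle of the sequence and ACA in the last 8 bases of the others.
SNORA44: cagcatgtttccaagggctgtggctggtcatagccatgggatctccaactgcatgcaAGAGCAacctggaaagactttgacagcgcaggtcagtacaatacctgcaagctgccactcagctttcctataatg
SNORA24: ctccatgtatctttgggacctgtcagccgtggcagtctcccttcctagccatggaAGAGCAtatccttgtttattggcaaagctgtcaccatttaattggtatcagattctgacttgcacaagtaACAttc
SNORD83B: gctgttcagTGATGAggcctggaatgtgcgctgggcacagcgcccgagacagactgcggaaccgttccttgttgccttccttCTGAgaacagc
SNORD83A: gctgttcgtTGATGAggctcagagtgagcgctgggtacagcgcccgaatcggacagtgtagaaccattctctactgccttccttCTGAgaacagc
SNORD118: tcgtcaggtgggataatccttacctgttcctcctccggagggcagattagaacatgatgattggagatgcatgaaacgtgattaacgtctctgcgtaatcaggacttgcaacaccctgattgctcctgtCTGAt
SNORA12: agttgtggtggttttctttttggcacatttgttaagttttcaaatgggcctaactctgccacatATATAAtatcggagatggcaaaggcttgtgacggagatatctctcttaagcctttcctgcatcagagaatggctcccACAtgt
SCARNA22: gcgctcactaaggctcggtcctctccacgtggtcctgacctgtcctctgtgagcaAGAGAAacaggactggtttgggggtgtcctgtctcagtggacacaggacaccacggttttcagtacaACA

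The motifs were searched on the strand of the RNA alone. TGATGA, which holds the C box, was found in 6 of the 8 C/D members with a single transcript and in 65.9% of 296 C/D genes. CTGA, the D box, was found in 8 of 8 and in 91.6%. The letters of CTGA can overlap those of TGATGA, but the search windows were at opposite ends. ACA stood in the last 8 bases of 10 of 12 H/ACA members and of 83.0% of 206 H/ACA genes, and ANANNA, the H box, in the middle of 11 of 12 and of 89.3%. The C/D members were long for their class, with a median of 107 bases against 80 for all C/D genes, while the H/ACA members had a median of 136 bases against 133. SNORD83A and SNORD83B, both encoded in RPL3, were identical at 75 of 95 aligned positions (78.9%). The longest run of A in a single-transcript H/ACA or C/D member was 5 bases.

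How many reads stand behind a value decides how these RNAs can be read. The low values of single-transcript genes lay on steps that fitted an effective length, that is the gene length minus the mean of the fragments (250 ± 25 bases) that fit into it. For a gene of 104 bases such as SNORD46 the effective length was 3.59 bases, and a single read gave 25.8 to 35.1 RPKM with the empty vector, 47.5 to 66.1 RPKM in the libraries labelled hPRM1 and 105 to 219 RPKM with hPRM2. For a gene of 1000 bases the same read gave 0.124 to 1.05 RPKM. RPKM of snoRNAs are thus large even where reads are few, and are compared below only between libraries and not with longer genes. With these lengths 82 of 105 member values under 100 reads came within 0.05 of a whole number (78.1%). All 63 values of the 14 members in introns or outside genes did so, but only 19 of 42 values (45.2%) of the 11 members that overlap an exon of another gene, whose reads the counting could have shared between both genes.

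**Figure D1:**
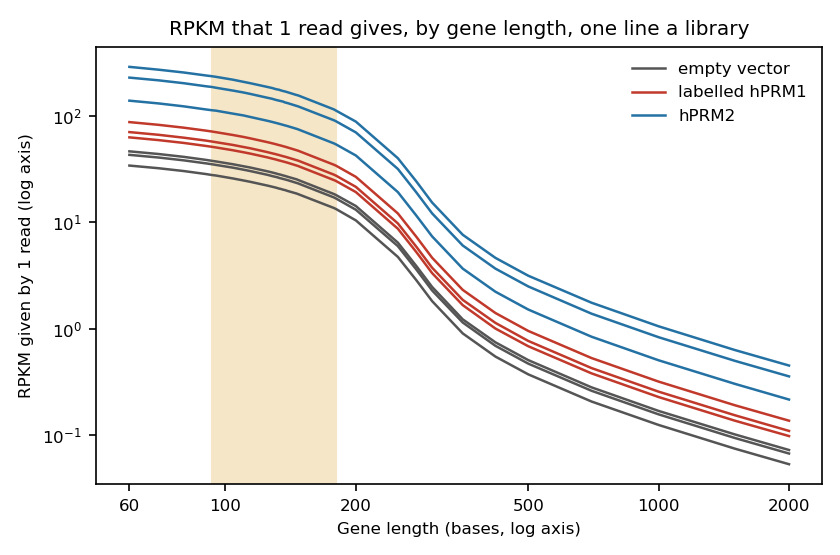
RPKM that 1 read gives (vertical log axis) against gene length in bases (horizontal log axis), one line for each of the 9 libraries coloured by group, with the lengths of 93 to 180 bases shaded. At 104 bases 1 read gave 25.8 to 35.1 RPKM with the empty vector and 105 to 219 RPKM with hPRM2.

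Estimated reads on genes were 7930000, 8550000 and 10790000 with the empty vector, from 4210000 to 5860000 in the 3 labelled hPRM1, and 2650000, 1270000 and 1610000 with hPRM2. The limit for a value of 0 was set at 3 reads, which for SNORD46 is 77.4 to 105 RPKM with the empty vector and 315 to 656 RPKM with hPRM2. These limits cover counting error only, because the reads carry no molecular identifiers. Of the 270 member values 143 were above 0, and none of these was under 1 RPKM, since for genes of up to 300 bases 1 read gave at least 1.81 RPKM. For these genes the threshold of the rule therefore asked for a read in 3 libraries. A read of the longer SCARNA9 gave 0.900 RPKM in empty vector replicate 3, and a read of SCARNA2 gave 0.545 to 0.742 RPKM with the empty vector. The genes with several transcripts have no read numbers. The 8 members just inside it had 3 values above 0 each, between 2.06 and 1278 RPKM with a median of 154, and the 24 genes just outside, with 2 values above 0, had values between 4.78 and 1356 RPKM with a median of 166. A further 446 of the 535 genes were at 0 in all 9 libraries.

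Detection differed between classes and libraries. SCARNA9, a long scaRNA of 353 bases from an intron of CEP295, was the only member above 0 in all 9 libraries. SNORA12, SNORD3A, SNORD13 and SCARNA22 were above 0 in 8 of 9. Of the 30 members, 14 were above 0 in all 3 empty vector libraries, 7 in all 3 labelled hPRM1 and 5 in all 3 hPRM2 libraries. In hPRM2 replicate 1 only 6 of 30 were above 0, against 21 in replicate 2 and 17 in replicate 3, although replicate 1 was the deepest of the group. Over all genes 9652 were above 0 in replicate 1, against 14353 and 15633 in replicates 2 and 3. There were 9 members at 0 in replicate 1 and above 0 in both others.

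**Figure D2:**
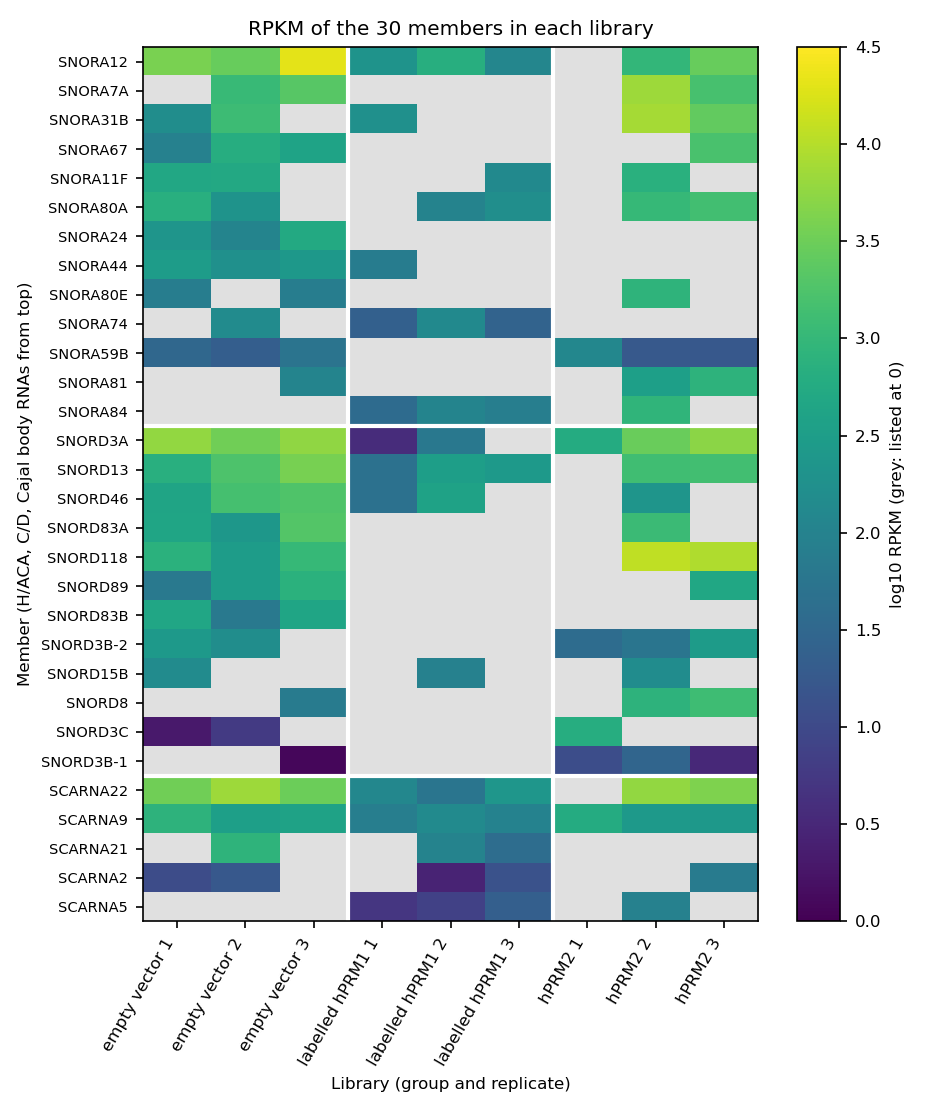
log10 RPKM of the 30 members (rows, H/ACA, C/D and Cajal body RNAs from the top, separated by white lines) in the 9 libraries (columns by group), with values of 0 in grey. In hPRM2 replicate 1 only 6 of 30 members were above 0, and 14 members were at 0 in all 3 libraries labelled hPRM1.

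Summed CPM (reads of a gene scaled to the library size alone, without the gene length) were compared over the 25 members with a single transcript. The sums were 138, 119 and 209 CPM with the empty vector, 12.1, 24.5 and 18.0 CPM for those labelled hPRM1 and 61.5, 214 and 163 with hPRM2. The libraries labelled hPRM1 lay below all others, while the hPRM2 sums spread over a wider range than the empty vector sums. H/ACA members summed to 29, 33.3 and 119 CPM with the empty vector and to 0, 91.4 and 52.6 with hPRM2. In empty vector replicate 3, SNORA12 alone gave 86.1% of the H/ACA reads. C/D members summed to 11.4, 15.2 and 36.0 with the empty vector and to 0, 66.9 and 53.6 with hPRM2, where SNORD118 gave 80.2% and 78.3% of the reads of replicates 2 and 3. Cajal body RNAs varied least, with 97.8, 71.0 and 53.8 with the empty vector and 61.5, 55.8 and 56.6 with hPRM2, and in hPRM2 replicate 1 all of these reads were from SCARNA9. A library scaled to its total cannot tell fewer cells with an RNA from less of the RNA per cell.

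**Figure D3:**
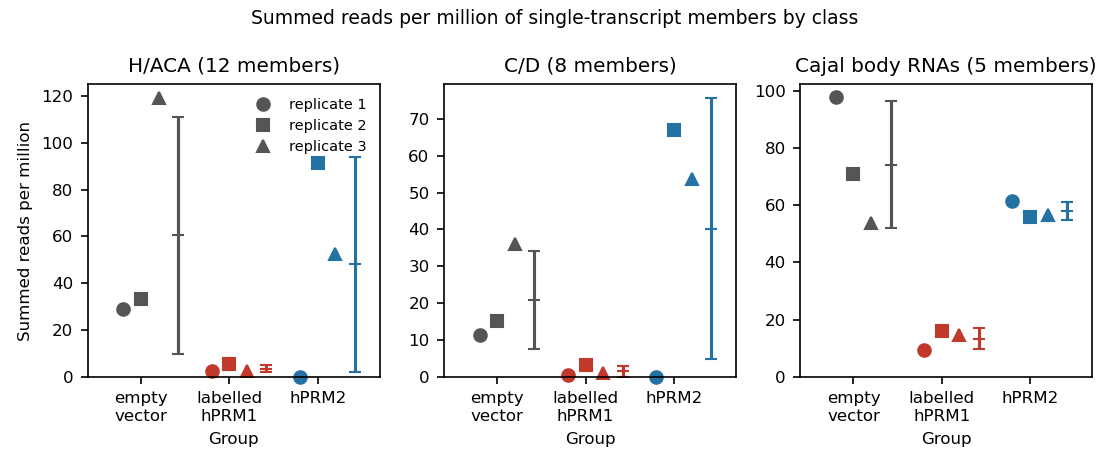
Summed CPM of the single-transcript members of each class (vertical axis) in each library, with circles, squares and triangles for replicates 1, 2 and 3 and with the group mean and SD (n = 3) beside them. The H/ACA and C/D sums of hPRM2 replicate 1 were 0, while those of replicates 2 and 3 were 52.6 to 91.4 and 53.6 to 66.9.

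With hPRM2, 3 members were lower than with the empty vector and none was higher. These were the H/ACA RNAs SNORA44 and SNORA24 and the C/D RNA SNORD83B, all of which were listed at 0 in all 3 hPRM2 libraries. SNORA44 stood at 309, 179 and 251 RPKM with the empty vector, which is 10.9, 6.79 and 12 reads. SNORA24 stood at 218, 106 and 548 RPKM, or 7.61, 4 and 26 reads. SNORD83B stood at 454, 65.7 and 445 RPKM, or 12, 1.87 and 16 reads. All of these rest on few reads, and the groups do not overlap. The limma test gave adjusted p = 9.54e-04 for SNORA44, 0.00558 for SNORA24 and 0.0113 for SNORD83B.

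Of the 13126 genes tested in this comparison 1.37% were called lower and 1.36% higher, and 25 of the 30 members could be tested. All 3 called members passed the minimum of 1 RPKM through the empty vector libraries alone and so had to differ, and of the 22 members tested with values in both groups none was called. The fitted log2 fold changes of the 3 RNAs (-7.91, -7.87 and -7.90) depend on the pseudocount and are no measure of size. In the hPRM2 libraries 3 reads of SNORA44 would give 255, 531 and 420 RPKM, so that the empty vector mean of 246 RPKM lay within the limit that a count of 0 allows in each of them. Pooled over the group, 29.7 reads of SNORA44 in 27260000 reads with the empty vector correspond to 6.02 reads in the 5530000 reads with hPRM2. If the listed 0 is a count of 0, it allows 3 reads over the group. SNORA44 would then be at least 2.01-fold lower, SNORD83B at least 2.02-fold lower and SNORA24 at least 2.54-fold lower. Without hPRM2 replicate 1, in which 24 of 25 single-transcript members were at 0, these bounds were 1.04-fold, 1.05-fold and 1.32-fold. The bounds take the empty vector reads as exact and a listed 0 as a count of 0, although all 3 RNAs overlap a host exon. Whether their reads were counted for the host was not tested. The 3 RNAs also reached the test through the empty vector reads, so the bounds describe these libraries only. With every value under 3 reads raised to 3 reads, which raises a 0 further in the shallower hPRM2 libraries, none of the 3 RNAs was called lower. Their log2 fold changes then were 0.68, 0.89 and 0.73, in the same order, which is no sign of a rise. None could be tested when any 1 of the empty vector libraries was left out, since only 2 values above 0 then remained. Without hPRM2 replicate 2 or without replicate 3, SNORA44 was called but SNORA24 and SNORD83B were not, with adjusted p between 0.0537 and 0.0798.

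**Figure D4:**
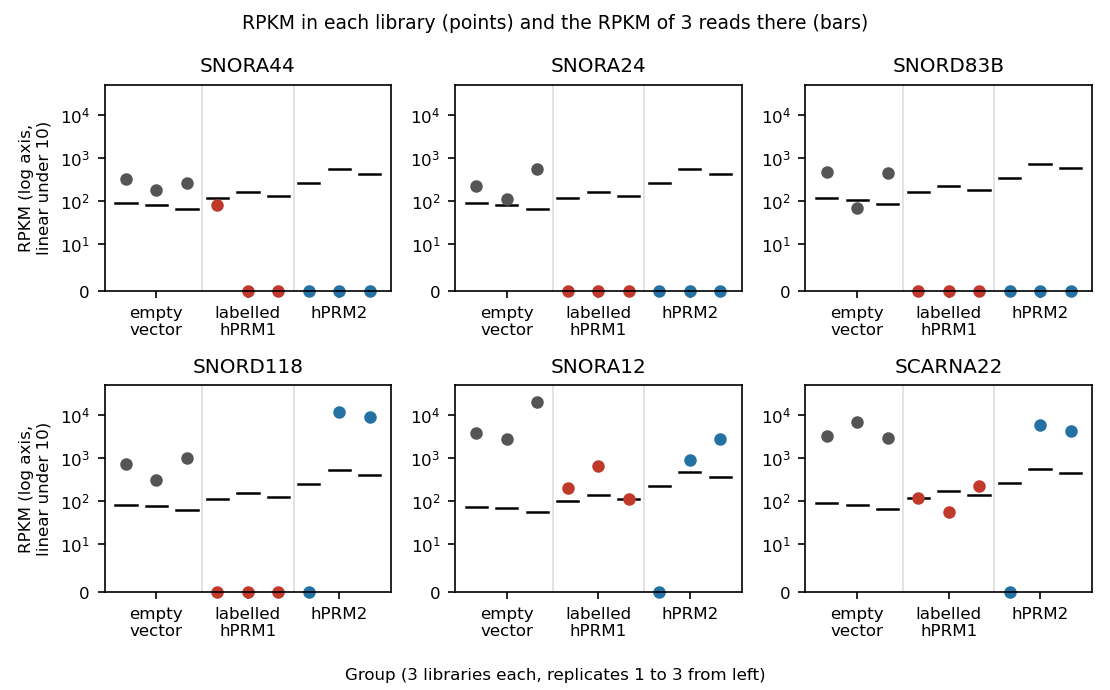
RPKM (vertical axis, log scale and linear under 10) of 6 members in each library (points, replicates 1 to 3 of each group from the left), with a bar at the RPKM that 3 reads give there. The empty vector values of SNORA44, 179 to 309 RPKM, lie under the bars of hPRM2 replicates 2 and 3 at 531 and 420 RPKM, while SNORD118 stood at 11902 and 9314 RPKM in these.

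The host genes of the 3 RNAs were not called. SNHG12, the non-coding host of SNORA44, stood at 236 ± 23.1 RPKM with the empty vector and 204 ± 80.6 RPKM with hPRM2 (SD, n = 3), a log2 fold change of -0.29 ± 0.39 (SE, adjusted p = 0.637). SNHG8, the host of SNORA24, stood at 1486 ± 266 and 1484 ± 545 RPKM (log2 fold change -0.07, SE 0.35, adjusted p = 0.914). RPL3, a protein of the large ribosomal subunit and the host of SNORD83A and SNORD83B, stood at 2178 ± 109 and 2026 ± 705 RPKM (log2 fold change -0.16, SE 0.28, adjusted p = 0.734). All 3 of these RNAs overlap an annotated exon of their host. Any gene overlapping a member on the same strand, by an intron or an exon, was counted as a host. Of 22 such genes tested, none was called lower and TMEM107, which SNORD118 overlaps, was the 1 called higher, where 1.37% and 1.36% of all genes tested were.

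SNORD118, the U8 RNA, had the highest member values with hPRM2 but was not called. It stood at 744, 306 and 1025 RPKM with the empty vector (26.6, 11.8 and 49.8 reads) and at 0, 11902 and 9314 RPKM with hPRM2 (0, 68.3 and 67.6 reads). Replicate 1 was thus below and the other hPRM2 libraries above every empty vector library. The log2 fold change was -0.36 ± 3.47 (SE, adjusted p = 0.955), and it was 4.09 ± 0.50 (adjusted p = 0.0114) without hPRM2 replicate 1, where SNORD118 was called higher. Over all genes 680 of 12825 were called higher without that library, against 179 of 13126 with it. SNORD118 overlaps an exon of TMEM107, a gene for a protein of the ciliary transition zone, which was singled out after its values were seen. TMEM107 stood at 23.5, 37.1 and 27.9 RPKM with the empty vector and at 121, 761 and 530 RPKM with hPRM2, higher in each library (log2 fold change 3.61, SE 0.69, adjusted p = 0.0452). That call was made in 4 of 16 alternatives, with adjusted p up to 0.284. How far reads of the one were counted for the other was not tested.

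Other C/D members were also at 0 in hPRM2 replicate 1. SNORD13, the U13 RNA, stood at 702, 1725 and 3716 RPKM with the empty vector and at 0, 1312 and 1384 RPKM with hPRM2 (log2 fold change -3.76, SE 2.74, adjusted p = 0.406). SNORD46, with the lowest fitted log2 fold change of the uncalled members, stood at 421, 1497 and 1858 RPKM with the empty vector and at 0, 219 and 0 RPKM with hPRM2. The single value above 0 was 1 read, the groups did not overlap, and the log2 fold change of -7.45 ± 2.04 missed the threshold (adjusted p = 0.0932). Without hPRM2 replicate 2 it was called (log2 fold change -10.04, adjusted p = 0.0189), but it then passed the minimum through the empty vector alone and had to differ. Its log2 fold change was -1.15 (adjusted p = 0.329) with values under 3 reads raised to 3 reads and -2.04 (adjusted p = 0.122) on CPM. SNORD83A stood at 448, 242 and 2004 RPKM and at 0, 1162 and 0 RPKM with hPRM2, so that the 5 reads of replicate 2 lay inside the range of the empty vector (adjusted p = 0.222). SNORD8, from CHD8, stood at 0, 0 and 74.2 RPKM with the empty vector and at 0, 811 and 1278 RPKM with hPRM2. It was called higher without hPRM2 replicate 1 (log2 fold change 7.92, SE 1.99, adjusted p = 0.0488) but not with it (adjusted p = 0.356). Its values in replicates 2 and 3 were 3.87 and 7.70 reads. A single read gave 209 and 166 RPKM there, so any value above 0 had to exceed the empty vector. SNORD89 stood at 65.4, 303 and 745 RPKM and at 0, 0 and 483 RPKM with hPRM2 (adjusted p = 0.240), and SNORD15B, above 0 in 1 library of each group, was not tested.

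The U3 genes, in contrast, were above 0 in hPRM2 replicate 1. SNORD3A stood at 5966, 3344 and 5615 RPKM with the empty vector and at 582, 3017 and 5237 RPKM with hPRM2, the highest mean of the C/D class with the empty vector (log2 fold change -1.20, SE 0.76, adjusted p = 0.347). SNORD3B-1 stood at 0, 0 and 1.19 RPKM and at 11.6, 29.9 and 3.33 RPKM with hPRM2, groups that did not overlap, and missed the threshold (log2 fold change 3.20, SE 0.84, adjusted p = 0.0863). SNORD3C had 625 RPKM in hPRM2 replicate 1 and 0 in the other hPRM2 libraries, against 0 to 5.79 RPKM with the empty vector. SNORD3B-2 stood between 39.3 and 298 RPKM with hPRM2. SNORD3A, SNORD3B-1, SNORD3B-2 and SNORD3C are near-identical copies with 3 transcripts each, so their reads can be split between them in ways that differ by library, and no read numbers are given for them.

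Among H/ACA members, SNORA12 had the highest mean with the empty vector. It stood at 3929, 2854 and 20402 RPKM with the empty vector (157, 123 and 1109 reads) and at 0, 935 and 2837 RPKM with hPRM2 (0, 6 and 23 reads). All hPRM2 values lay below those of the empty vector, with a log2 fold change of -5.46 ± 2.86 (adjusted p = 0.274). SNORA7A, from RPL32, stood at 0, 1067 and 2144 RPKM and at 0, 6979 and 1554 RPKM with hPRM2. SNORA31B, from TPT1, stood at 162, 1206 and 0 RPKM and at 0, 7933 and 2624 RPKM with hPRM2, and SNORA67, from the EIF4A1 locus, at 93.8, 646 and 413 RPKM and at 0, 0 and 1591 RPKM. These 3 overlapped between groups, with adjusted p between 0.320 and 0.917. SNORA11F stood at 499, 517 and 0 RPKM with the empty vector and at 731 RPKM in hPRM2 replicate 2 alone (adjusted p = 0.597). SNORA80A stood at 688, 204 and 0 RPKM and at 0, 1028 and 1356 RPKM with hPRM2, SNORA80E at 81.8, 0 and 80.2 RPKM and at 0, 849 and 0 RPKM, and SNORA81 at 0, 0 and 108 RPKM and at 0, 344 and 811 RPKM. The values of hPRM2 replicates 2 and 3 that were above 0 exceeded every empty vector value for these 3 RNAs, and replicate 1 was at 0 (adjusted p between 0.423 and 0.852). They rest on 6 and 10 reads of SNORA80A, 5 of SNORA80E and 3 and 8.93 of SNORA81. A single read gave 170 and 134 RPKM for SNORA80E in replicates 2 and 3, and 115 RPKM for SNORA81 in replicate 2. Any value above 0 there thus had to exceed the empty vector. SNORA74 and SNORA84 were above 0 in a single library each among these 6 and were not tested. SNORA59B, at 32.3, 22.5 and 54.5 RPKM with the empty vector and 123, 18.0 and 17.1 RPKM with hPRM2, was the only H/ACA member above 0 in hPRM2 replicate 1. Its gene model holds 2 transcripts and reaches over 701 bases, so these values need not come from the short RNA.

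The Cajal body RNAs gave no call with hPRM2. SCARNA9 stood at 796, 344 and 399 RPKM with the empty vector (650, 303 and 443 reads) and at 597, 274 and 254 RPKM with hPRM2 (163, 36 and 42 reads). It had the most reads of all single-transcript members in 6 of 9 libraries, and its groups overlapped (log2 fold change -0.46, SE 0.47, adjusted p = 0.540). SCARNA22, from an intron of NSD2, stood at 3307, 6828 and 3027 RPKM and at 0, 5802 and 4297 RPKM with hPRM2 (adjusted p = 0.463). In replicates 2 and 3 these were 31 and 29 reads, within the range of the empty vector. SCARNA2 stood at 11.1, 17.2 and 0 RPKM and at 0, 0 and 73.1 RPKM with hPRM2 (adjusted p = 0.874). SCARNA21 was above 0 in empty vector replicate 2 alone among these 6 libraries, at 846 RPKM, and SCARNA5 in hPRM2 replicate 2 alone, at 96.2 RPKM, so neither was tested.

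Over the 25 members tested with hPRM2, 17 log2 fold changes were below 0 and 8 above, with a median of -0.99 against -0.72 for all genes tested. These medians were -0.29 and -0.73 without hPRM2 replicate 1, -2.67 and -0.66 without replicate 2, and 0.83 and 0.59 over single-transcript genes with values under 3 reads raised to 3 reads, so the order of members and all genes was not stable. The median was -0.99 also with the 3 called members at their bounds. The groups did not overlap for 6 of the 25, against 35.9% of all genes tested. At an unadjusted limma p under 0.05 there were 5 of the 25 members, against 3351 of the 13126 genes tested.

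In the libraries labelled hPRM1, 14 of 22 members tested were lower than with the empty vector and 2 were higher. Of the 13588 genes tested in this comparison 62.5% were called lower and 12.9% higher, so that the share of members called is close to that of all genes. Of the 14 lower members 7 were at 0 in all 3 libraries labelled hPRM1 and passed the minimum of 1 RPKM through the empty vector alone, and both higher members passed it through the libraries labelled hPRM1 alone. The other 7 lower members had reads on both sides. All 16 called members had groups that did not overlap, as 80.8% of all genes tested did. The median log2 fold change was -4.87 over the members, -3.28 with members at 0 set to their bound (SNORA59B, with 2 transcripts, left as fitted) and -1.72 over all genes tested. Over single-transcript genes it was -0.86 for members and -0.93 for all genes with values under 3 reads raised to 3 reads, and -1.04 and -0.89 on CPM. Median-of-ratios rescaling moved the median of all genes to -0.12 and that of the members to -2.72, and then 10 members were called lower and 3 higher, with 3945 of all genes lower and 3926 higher against 8491 and 1750 before. Quantile normalization gave 10 members lower and 2 higher, with 4787 and 3439 of all genes.

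SNORD3A fell most among the members with values on both sides, from 5966, 3344 and 5615 RPKM to 3.80, 64.1 and 0 RPKM (log2 fold change -9.47, SE 1.40, adjusted p = 7.25e-04). SNORA12 stood at 203, 660 and 114 RPKM in the libraries labelled hPRM1 (6, 14 and 3 reads), each lower than every empty vector value (log2 fold change -4.62, SE 0.91, adjusted p = 0.00289). SCARNA22 stood at 122, 56.6 and 228 RPKM there, or 3, 1 and 5 reads (log2 fold change -5.12, SE 0.55, adjusted p = 1.59e-04). These 3 RNAs are the highest of their class with the empty vector. SNORD13 stood at 47.5, 330 and 266 RPKM (log2 fold change -3.35, SE 0.89, adjusted p = 0.0111) and SNORD46 at 47.5, 397 and 0 RPKM (log2 fold change -5.30, SE 2.05, adjusted p = 0.0489). SNORA44 had 2 reads in replicate 1, or 76.9 RPKM, and 0 in the others (log2 fold change -5.82, SE 1.66, adjusted p = 0.0152). SNORD46 was not called without any 1 of the empty vector libraries or without replicate 1 labelled hPRM1, and SNORA44 was not called without empty vector replicate 3. Leaving out an empty vector library left 5 or 6 lower members, since those at 0 in the libraries labelled hPRM1 could then not be tested.

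SCARNA9 had the best-counted fall. It stood at 82.8, 143 and 100 RPKM in the libraries labelled hPRM1, which is 50, 62 and 54 reads, and its log2 fold change was -2.16 ± 0.37 (adjusted p = 0.00141). That lay near the median of all genes of -1.72. Median-of-ratios rescaling, which moved the median of all genes to -0.12, moved SCARNA9 with it to a log2 fold change of 0.01.

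There were 14 members at 0 in all libraries labelled hPRM1. The 7 that were tested passed the minimum through the empty vector alone and so had to differ. If a listed 0 is a count of 0 that allows 3 reads over the group, SNORD118 was at least 16.5-fold lower. It had 88.2 reads with the empty vector, which were taken as exact. The bound was 17.2-fold for SNORD83A, 9.28-fold for SNORA67, 8.04-fold for SNORD89, 7.03-fold for SNORA24 and 5.59-fold for SNORD83B. SNORD118 and all of these except SNORD83A overlap a host exon. Whether their reads were counted for the host was not tested. SNORA59B, without a read number, was listed at 0. Of the 7 that were not tested, SNORA7A had 152 reads in 2 empty vector libraries and the highest bound, 28.4-fold. That bound has the same limit, since SNORA7A overlaps an exon of RPL32. SNORA81 and SNORA80E had 8 and 7 reads, and SNORD8, with 3 reads, has no bound. SNORD3B-1, SNORD3B-2 and SNORD3C have no read numbers. Both higher members rest on very few reads. SNORA84 stood at 38.1, 106 and 85.5 RPKM in the libraries labelled hPRM1, which is 1, 2 and 2 reads, and SCARNA5 at 5.22, 7.27 and 23.4 RPKM, or 1, 1 and 4 reads, and both were at 0 with the empty vector. Neither was called with values under 3 reads raised to 3 reads. The uncalled members were SNORA11F, SNORA31B, SNORA74, SNORA80A, SCARNA2 and SCARNA21, with adjusted p between 0.191 and 0.823.

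**Figure D5:**
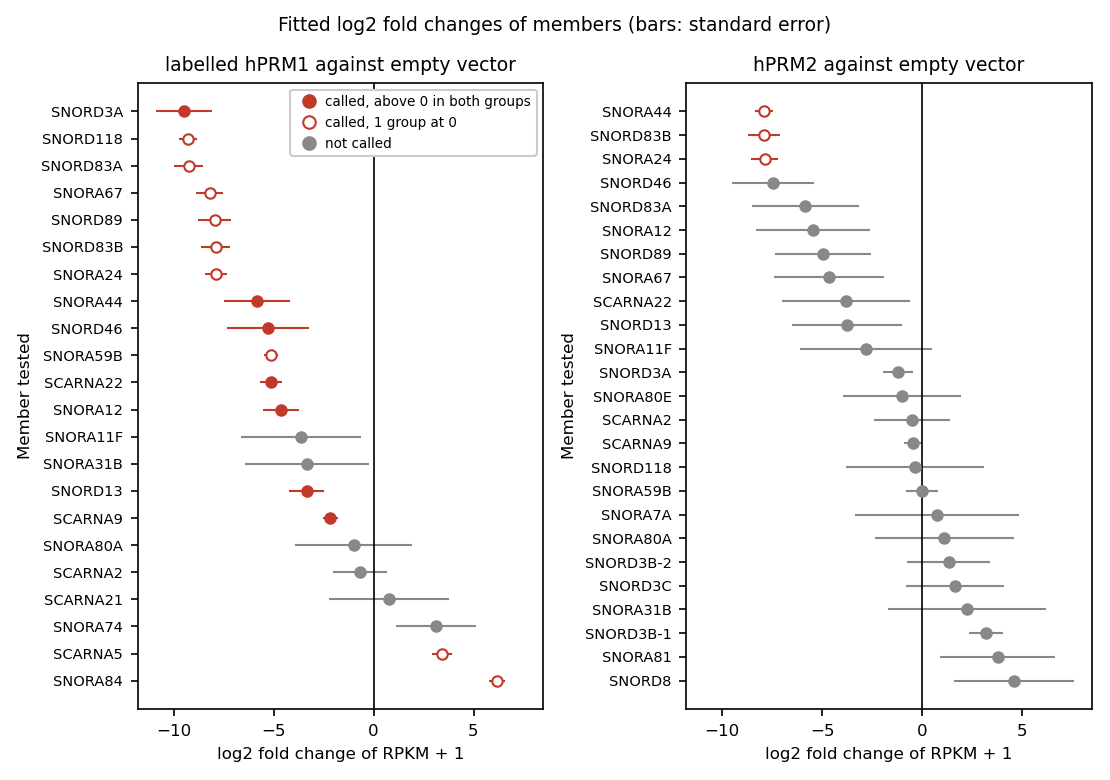
Fitted log2 fold changes of log2(RPKM + 1) with standard errors (bars) for the 22 and 25 members tested against the empty vector, called members in red and uncalled ones in grey, with open symbols where 1 of the groups was at 0 in every library. With hPRM2 the 3 called members are all open, and in the libraries labelled hPRM1 the called members are 7 filled and 9 open.

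The libraries labelled hPRM1 were also compared with the hPRM2 libraries, where 15 members could be tested. Of the 11756 genes tested 37.0% were lower in the libraries labelled hPRM1 and 16.0% higher, and 62% had groups that did not overlap. Among the members 5 were lower, 1 was higher and 6 did not overlap. Of these, 3 of the lower and the higher 1 passed the minimum of 1 RPKM through a single group and so had to differ. SNORD3A (log2 fold change -8.27, SE 1.63, adjusted p = 0.00628) and SCARNA9 (log2 fold change -1.70, SE 0.42, adjusted p = 0.0151) were lower with values on both sides. The log2 fold change of SCARNA9 was 0.23 after median-of-ratios rescaling and 0.30 after quantile normalization, which moved the median of all genes from -0.97 to 0.50 and to 0.13. SCARNA9 was not called without replicate 1 or without replicate 3 labelled hPRM1. SNORD3B-1, SNORD3B-2 and SNORA59B were listed at 0 in the libraries labelled hPRM1. SNORA74, with 24.4, 136 and 27.3 RPKM in the libraries labelled hPRM1 and 0 in all 3 hPRM2 libraries, was the 1 called higher. These values were 1, 4 and 1 reads. In the hPRM2 libraries 3 reads would give 162, 337 and 267 RPKM, so all of them lay within what a count of 0 allows there. SNORA74 was not called with values under 3 reads raised to 3 reads (limma adjusted p = 0.0603). The gene table names this copy SNORA74, whereas GENCODE 29 gives it a family name only, and among the 535 genes 103 identifiers share a symbol with another. Only with the libraries labelled hPRM1 did SNORA74, SNORA84, SNORD15B, SCARNA5 and SCARNA21 reach the rule for members, and 25 genes met it without them.

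The mRNAs of the proteins that bind these RNAs were measured in the same libraries. All values below are of mRNA, and no protein was measured. Of the C/D core proteins, FBL, the methyltransferase, stood at 1038 ± 86.5 RPKM with the empty vector, 923 ± 176 RPKM with hPRM2 and 65.8 ± 4.11 RPKM in the libraries labelled hPRM1. The scaffold proteins NOP56 (326 ± 95.8, 387 ± 179 and 45.1 ± 9.82 RPKM) and NOP58 (135 ± 43.2, 198 ± 36.8 and 5.79 ± 0.773 RPKM) and the RNA-binding SNU13 (124 ± 37.4, 94.2 ± 27.2 and 26.7 ± 1.31 RPKM) were lowest in the libraries labelled hPRM1 as well. Of the H/ACA core proteins, DKC1, the pseudouridine synthase, stood at 1036 ± 255, 783 ± 541 and 116 ± 39.2 RPKM. NHP2 stood at 384 ± 38.6, 609 ± 243 and 14 ± 1.58 RPKM, NOP10 at 498 ± 78.1, 477 ± 193 and 67.2 ± 12.5 RPKM, and GAR1 at 112 ± 16.6, 53.7 ± 24.2 and 11.0 ± 1.57 RPKM, always in the order empty vector, hPRM2, labelled hPRM1.

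No mRNA of the 8 core proteins was called with hPRM2. The limma adjusted p ranged from 0.332 to 0.802 for the C/D set (median log2 fold change 0.00). It ranged from 0.175 to 0.823 for the H/ACA set (median -0.48), against a median of -0.72 over all genes. In the libraries labelled hPRM1 all 8 mRNAs were lower, as were 62.5% of all genes tested. Their median log2 fold changes were -3.38 and -3.21, against -1.72 over all genes. NHP2 (-4.68), NOP58 (-4.27), FBL (-3.96) and GAR1 (-3.23) had the largest changes. Of 10 assembly factors 10 were lower there (median -3.11), as were 6 of 7 snoRNA processing enzymes (median -2.13), namely the exosome subunits EXOSC10 and EXOSC3, TENT4B, PARN, TGS1, which methylates caps, and DBR1, which opens intron lariats, but not the exonuclease XRN2, and 3 of 4 Cajal body proteins (median -2.94). With hPRM2 none of these 3 lists had a called gene, with medians of -0.53, -0.84 and -2.19.

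Of 22 host genes tested, 20 were lower in the libraries labelled hPRM1 and 1 was higher, with a median log2 fold change of -2.75, against 62.5% and 12.9% of all genes tested and their median of -1.72. With hPRM2 none was lower and 1 was higher, against 1.37% and 1.36% of all genes, with a median of -0.21 against -0.72. RNF149, the host of SNORD89, was the 1 host higher in the libraries labelled hPRM1 (log2 fold change 3.21, SE 0.20, adjusted p = 1.75e-05), where SNORD89 itself was at 0 in all 3 libraries and at 65.4, 303 and 745 RPKM with the empty vector. The host counts include genes singled out after their values were seen.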

How the data were processed

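RNA was measured in 9 libraries deposited as HEK293T cells, 3 each labelled empty vector, hPRM1 and hPRM2. The markers of the 3 labelled hPRM1 went against this cell type. The authors deposited RPKM values for 57338 genes in a single table without counts, made with nf-core/rnaseq (FastQC, Cutadapt, STAR and Salmon on hg38, versions and annotation not given in the sources used here) after removing mitochondrial genes. No sample was pooled, and 0 further columns of sample values were left unused. Symbols were found for 98.6% of identifiers.

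Positions, transcripts, exons and sequences came from GENCODE 29 (GRCh38). The position, host and sequence of SNORD46 are not reported here. Reads on genes were estimated from the lowest steps of the RPKM of single-transcript genes between 600 and 20000 bases long. Read numbers of members were computed with effective lengths (fragments of 250 ± 25 bases, cut at the gene length), in place of the annotated lengths first planned, because only these gave whole numbers. They are estimates, so no test of counts was run.

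The comparisons used limma 3.58.1 in R 4.3.3 (lmFit, eBayes with trend and robust) on log2(RPKM + 1), over genes reaching 1 RPKM in 3 or more of the 6 libraries, with Benjamini-Hochberg adjustment over all genes tested. On this scale the change of low genes is understated. Genes were called at an adjusted p-value up to 0.05 with a change of 2-fold or more. The scripts were tested on simulated data. Python 3.11.15 (numpy 2.4.6, pandas 2.3.3, Biopython 1.88, matplotlib 3.10.9) served for the rest.

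The members and gene lists were chosen with earlier results of these data known. Named members are SNORA44, SNORD83B and SNORA24, the 5 with the highest empty vector mean of each class, and up to 3 largest falls and rises of each class among called members with values in both groups. The other members were named to account for all 30. Alternatives were pseudocounts of 0.1 and 5, no filter, a minimum of 10 RPKM, median-of-ratios and quantile scaling, 1 fit over the 9 libraries together, blocking on the replicate number, each library left out, calls without the fold limit and a per-gene test with unequal variances on the log2 values. Fits of single-transcript genes alone, with values under 3 reads raised to 3 reads, or on CPM with a pseudocount of 1 were added after seeing the data. Members were also counted without the libraries labelled hPRM1 and without hPRM2 replicate 1.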

Additional observations from a re-analysis of the deposited data

How the results depend on the processing

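With hPRM2, 3 members were lower and 0 higher under the pseudocounts, filters and scalings tried. These 3 were at 0 in every hPRM2 library, so such settings could hardly change their calls, and the constancy is no support for them. Lower calls over all genes ranged from 17 of 20888 without the filter to 172 of 13126 with a pseudocount of 0.1, against 180 before. The per-gene test with unequal variances on log2 values and CPM with a pseudocount of 1 called 0 lower members. Over all genes the per-gene test called 0 of 13126 lower, and CPM 27 of 1674. With values under 3 reads raised to 3 reads, 0 were lower and 2 higher, SNORD8 (2.93) and SNORA80E (2.46). The log2 fold changes of SNORA44, SNORA24 and SNORD83B then were 0.68, 0.73 and 0.89. Because 3 reads stand for more RPKM in the shallower hPRM2 libraries, values of 0 there were raised further. Over all 1674 genes so tested, 31 were lower and 238 higher, with a median of 0.59. These signs are therefore no measure of direction. The fit of all 9 libraries added 1 higher member, SNORD3B-1. Leaving out 1 library gave 0 to 3 lower and 0 to 2 higher members, the most without hPRM2 replicate 1, where SNORD118 turned to 4.09 (range over the libraries left out -2.67 to 4.09). Without that library 1577 lower and 680 higher genes were called of 12825, against 180 and 179 of 13126 with it. Leaving out a library leaves fewer values above 0 to pass the minimum.

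In the libraries labelled hPRM1, values raised to 3 reads left 6 lower and 0 higher members, against 735 and 309 of 1657 genes. CPM left 0 higher members, against 279 of 1657 genes. The minimum of 10 RPKM and the fit of all 9 libraries each left 1 higher member, against 867 of 6983 and 1545 of 13588 genes. Leaving out 1 library gave 5 to 14 lower and 0 to 3 higher members. Over all genes these fits called 5606 to 8478 lower and 664 to 1816 higher. SCARNA9 went to 0.01 after median-of-ratios rescaling, which moved the median of all genes from -1.72 to -0.12. Of 225 values of the 13 named and called members under an alternative, 191 kept their call, 33 lost it and 1, SCARNA9 after that rescaling, changed sign.

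Between the libraries labelled hPRM1 and hPRM2, the per-gene test called 0 lower and 0 higher members, against 2388 and 1098 of 11756 genes. Single-transcript genes alone gave 0 lower members, against 449 of 1457 genes. CPM gave 1 lower and 0 higher member, against 467 and 245 of 1457 genes. Values raised to 3 reads gave 0 higher members, against 142 of 1457 genes. Leaving out 1 library gave 2 to 6 lower and 0 to 3 higher. Over all genes these fits called 2912 to 4352 lower and 402 to 2121 higher. The cause of these changes was not tested beyond what the alternatives themselves change.

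Replicates with the same number did not deviate together (correlations from -0.0783 to 0.0795). With the replicate block 3 members were lower and 0 higher with hPRM2, though calls over all genes fell from 180 and 179 to 8 and 49. In the libraries labelled hPRM1 14 members were then lower and 3 higher, against 8551 and 1783 of 13588 genes. With annotated lengths 11.4% of the member values came to whole reads, against 78.1%. A minimum of 10 RPKM, rescaling, or leaving out the libraries labelled hPRM1 or hPRM2 replicate 1 kept the number of members within 1.5 times of 30. A count of 0 allowed up to 656 RPKM of SNORD46 with hPRM2. In hPRM2 replicate 1, the deepest of its group, 24 of 25 single-transcript members were at 0, and the empty vector mean of 15 of these lay above the limit of 3 reads, against 0 in replicate 2 and 2 in replicate 3.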
